A study of Rattus norvegicus and Mus musculus with 24 samples.

Results

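Chemokines are small secreted proteins that direct the migration of leukocytes, and they act through receptors that span the cell membrane and signal through Gi proteins. Their names follow the spacing of the first cysteines (CC, CXC, CX3C and XC), and a small set of atypical receptors (ACKR) binds chemokines without classical signalling and clears or retains them. In the kidney they are made by tubular, endothelial, stromal and immune cells, while most of the classical receptors are carried by immune cells.

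The members described here were all symbols made of CCL, CXCL, CX3CL, XCL, CCR, CXCR, CX3CR, XCR or ACKR followed by a number. The rule found 47 of the 17376 symbols measured in mice and 49 of the 14931 measured in rats, 43 of them in both species and 53 in either. Symbols seen only in mice were ACKR1, CCL8, CCL28 and CCR2, and those seen only in rats were CCL4, CCL15, CCL18, CXCL3, CXCL6 and XCL1. CXCL1, CXCL2 and CXCL5 had no row in either table, and CCR2 was not analysed in rats. Rows are named by human symbols, and some held the mean of several rodent genes. This was the case for CCL19, CCL21, CCL27 and CCR1 in mice and for CCL2, CCL15, CCR1 and CXCL3 in rats, and these rows are uncertain to that extent.

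Bulk RNA sequencing was carried out on kidney tissue of Ctns KO and Ctns WT animals, with 1 library per animal. Ctns encodes cystinosin, the lysosomal cystine exporter, and the knockout was present in the whole animal. The mice were 4 Ctns KO and 4 Ctns WT animals on a C57BL/6 background, and the rats were 8 Ctns KO and 8 Ctns WT Sprague-Dawley animals, with littermates as controls and no treatment named in the labels. The labels name kidney cortex as the tissue, proximal tubule cells as the cell type and a protocol for dissected proximal tubules, and they give no age or sex for the sequenced animals. Replicates are animals told apart by number, and p-values measure the spread between these animals. Rats carried the numbers 17 to 24 and 25 to 32, with 4 animals of each genotype in each range. What sets the ranges apart is not stated, and 43.8% of all genes tested passed the test in the second range against 7.26% in the first.

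Depth was 19309449 to 44449859 reads on genes per mouse and 24684097 to 40629873 per rat. The targeted gene fell in mice, where CTNS was 0.332 ± 0.0102 in KO and 0.918 ± 0.0868 in WT animals (scaled value, SD, n = 4 each; log2 change -1.43, limma adjusted p = 1.72e-07). In rats CTNS was 19.1 ± 1.86 CPM in KO and 22.3 ± 2.98 CPM in WT animals (SD, n = 8 each), the groups overlapped and the log2 difference of -0.22 did not pass the test (edgeR adjusted p = 0.0511). CTNS was called lower with DESeq2 (adjusted p = 0.0402), with the number range as a covariate (edgeR adjusted p = 0.0251), without any 1 of 5 rats (KO animals 24 and 26 and WT animals 17, 19 and 21; edgeR adjusted p up to 0.0453) and in rats 25 to 32 alone (-0.32, edgeR adjusted p = 0.0391). Proximal tubule markers were present in every library. Markers of macrophages, T cells, endothelium and fibroblasts were also present, so the libraries did not hold proximal tubule cells alone.

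Mouse values are scaled so that 1 is the upper quartile of the library, and mouse changes are limma differences of log2(value + 0.01), which understates the change of low genes. Rat values are CPM on TMM-normalised library sizes, and rat changes are log2 changes from edgeR's quasi-likelihood test. A member was called when its Benjamini-Hochberg adjusted p over all genes tested was under 0.05. In bulk samples fewer cells of a type and less RNA per cell cannot be told apart.

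The rat promoters of the 3 ligands of CXCR3 are shown first, since all 3 ligands rose in rats. Each runs from 250 bases before to 50 bases after the annotated start (RefSeq, build GRCr8), all on the plus strand: Cxcl9 at chr14:16006916-16007215, Cxcl10 at chr14:15988816-15989115 and Cxcl11 at chr14:15973478-15973777. Capitals mark matches, on either strand, to a kappaB motif (GGG, any 3 bases, TTCC) and to an interferon response element (GAAA, any 2 bases, GAAA).
Cxcl9: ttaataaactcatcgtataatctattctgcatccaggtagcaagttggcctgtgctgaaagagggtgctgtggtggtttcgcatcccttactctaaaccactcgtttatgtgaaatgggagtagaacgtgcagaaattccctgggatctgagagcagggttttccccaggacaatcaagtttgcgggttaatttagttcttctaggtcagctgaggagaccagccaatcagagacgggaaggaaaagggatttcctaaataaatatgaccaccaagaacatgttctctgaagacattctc
Cxcl10: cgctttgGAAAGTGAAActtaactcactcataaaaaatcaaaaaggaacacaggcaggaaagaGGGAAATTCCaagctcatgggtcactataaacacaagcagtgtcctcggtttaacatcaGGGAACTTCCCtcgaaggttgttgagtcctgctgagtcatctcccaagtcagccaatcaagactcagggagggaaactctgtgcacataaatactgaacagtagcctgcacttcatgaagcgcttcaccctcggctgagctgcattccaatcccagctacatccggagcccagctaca
Cxcl11: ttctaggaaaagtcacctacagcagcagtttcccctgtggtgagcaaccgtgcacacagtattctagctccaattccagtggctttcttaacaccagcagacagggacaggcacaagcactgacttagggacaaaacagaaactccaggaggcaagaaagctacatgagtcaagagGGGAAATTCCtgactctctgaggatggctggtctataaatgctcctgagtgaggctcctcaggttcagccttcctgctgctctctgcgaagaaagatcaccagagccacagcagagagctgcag
The Cxcl10 window held 1 interferon response element and 2 stretches that match the kappaB motif. The Cxcl11 window held 1 kappaB match and the Cxcl9 window held no match to these letters. Over all 33469 rat promoters of this length, 5.37% held the kappaB motif and 3.92% the interferon response element. Of the 35 member promoters found, 6 held the kappaB motif (Ccl7, Ccl20, Ccr3, Cxcl6, Cxcl10 and Cxcl11) and 2 the interferon response element (Ccl19 and Cxcl10). A match is a description of the sequence and does not show binding.

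In mice, levels could be compared between genes per length, as CPM (read counts scaled to the library total) per kilobase of exon (GENCODE vM21, build GRCm38). CXCL12, a homeostatic chemokine that retains cells bearing CXCR4, was at 25.1 ± 4.51 in Ctns WT animals (SD, n = 4). CX3CL1, a membrane-bound chemokine, was at 24.1 ± 3.06 and CXCL16, another membrane-bound one, at 20.2 ± 2.11. The ranges of these 3 genes overlapped. ACKR3, a scavenger of CXCL12, followed at 14.0 ± 2.55 and CXCL14, a chemokine of epithelia and stroma, at 10.9 ± 1.02, with overlapping ranges. The other members with a level per length had lower means, led by CXCR4, the highest classical receptor, at 3.44 ± 0.879 and CCL28 at 3.36 ± 2.45. Inflammatory members were far lower, with CXCL10 at 1.52 ± 0.124, CCR2 at 1.54 ± 0.235 and CCL2 at 0.107 ± 0.0586. CCL26 had no read in any mouse, and CXCR1 had 1 read in all.

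**Figure D1:**
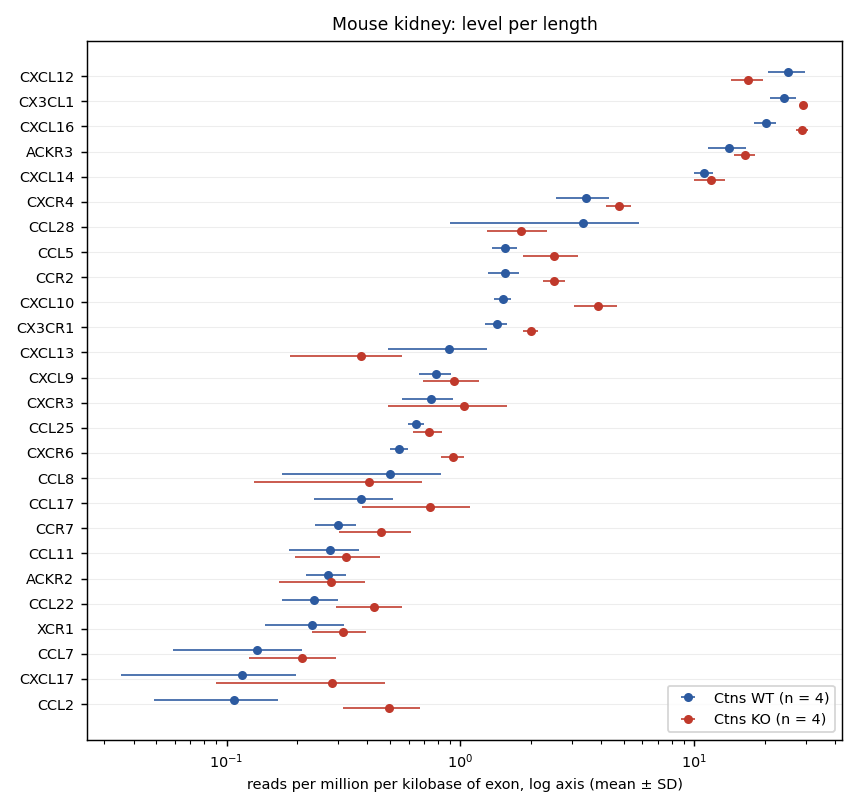
Level per length of members with a mean above 0.1 in wild-type mice, in CPM per kilobase of exon on a log axis; points are means and bars SD over 4 Ctns WT (blue) and 4 Ctns KO (red) mice. CXCL12, CX3CL1 and CXCL16 lead in WT animals, and CXCL10 moves from 1.52 to 3.87.

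In mice, 24 of the 47 members passed the filter on low values and 7 were called, where 8.99% of all genes tested were. Of these, 6 were higher in Ctns KO kidneys, where 6.6% of all genes tested were, and 1 was lower, where 2.38% of all genes were. The median log2 difference over the 24 members was 0.23, against 0.0098 over all genes tested. The groups did not overlap for 7 members that were higher (9.26% of all genes tested) and 1 that was lower (4.96%). The higher members included CXCL10, CXCL16, CCR2, CX3CR1 and CXCR6, and the lower one was CXCL12.

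Among the mouse ligands that passed the filter, CXCL10 showed the largest change. CXCL10 is induced by interferons and attracts activated T cells through CXCR3. Its scaled value was 0.218, 0.196, 0.144 and 0.148 in KO animals 3, 5, 6 and 8, and 0.0708, 0.0718, 0.0806 and 0.0689 in WT animals 1, 2, 4 and 7. Every KO animal was above every WT animal, and the log2 difference was 1.15 ± 0.14 (SE, limma adjusted p = 0.000144). Its locus overlaps Art3, whose own log2 difference in mice was 0.06 (limma adjusted p = 0.888). The other ligands of CXCR3 did not move with it: CXCL9 was 0.0576 ± 0.015 in KO and 0.0508 ± 0.00835 in WT animals (SD, n = 4 each; limma adjusted p = 0.741), and CXCL11, whose C57BL/6 allele is known to make no protein, had 8 to 14 reads per mouse and was not tested.

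CXCL16, the ligand of CXCR6 and a scavenger receptor for oxidised lipoprotein, was 1.78, 1.89, 1.72 and 1.69 in KO animals and 1.23, 1.52, 1.2 and 1.24 in WT animals. All KO values lay above all WT values (log2 difference 0.45 ± 0.08, limma adjusted p = 0.00239), with WT animal 2 standing above the other WT animals. CXCR6, its receptor on effector T cells and NKT cells, was 0.0339, 0.0425, 0.035 and 0.0354 in KO animals and 0.0232, 0.0214, 0.025 and 0.0219 in WT animals. These groups did not overlap either, on 19 to 59 reads per mouse (log2 difference 0.50 ± 0.14, limma adjusted p = 0.0357). The call for CXCR6 was lost with edgeR on the recovered reads (adjusted p = 0.0512) and after leaving out any 1 of the 8 mice (limma adjusted p up to 0.125). The Cxcl16 locus overlaps Zmynd15 in mice and in the rat annotation (GRCr8). ZMYND15 itself had a log2 difference of 0.20 in mice (limma adjusted p = 0.294).

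CXCL12 was the only called member that was lower in Ctns KO mice. Its scaled value was 3.16, 2.49, 2.40 and 3.20 in KO animals and 5.08, 3.44, 4.8 and 4.13 in WT animals. The lowest WT animal stood just above the highest KO animal, and CXCL12 fell by 0.63 ± 0.14 on the log2 scale (limma adjusted p = 0.0189). The call was lost without KO animal 5, KO animal 6 or WT animal 4 (limma adjusted p up to 0.064). Its signalling receptor CXCR4 was 0.175 ± 0.0217 in KO and 0.133 ± 0.0354 in WT animals (SD, n = 4 each; limma adjusted p = 0.15) and passed only without WT animal 2 (limma adjusted p = 0.0151), and ACKR3 was 1.11 ± 0.124 against 0.996 ± 0.171 (limma adjusted p = 0.46). Endothelial markers, which belong to one of the cell types that make CXCL12, summed to 12.0 to 12.8 in KO and 12.7 to 13.9 in WT mice. Of these, 1 of 8 was called lower (KDR), where 2.38% of all genes tested were. Fibroblast and pericyte markers summed to 7.51 to 8.40 and 4.38 to 5.93, and 4 of 8 were called higher, where 6.6% of all genes tested were. The part of both in the result was not tested.

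CCR2 and CX3CR1, receptors of monocytes and macrophages, were called higher in Ctns KO mice, while CCR1, also a receptor of these cells, did not pass the test (log2 difference 0.19, limma adjusted p = 0.633) and its groups overlapped. CCR2, which brings monocytes out of the marrow, was 0.314, 0.356, 0.396 and 0.315 in KO animals and 0.229, 0.245, 0.170 and 0.246 in WT animals, without overlap (log2 difference 0.62 ± 0.12, limma adjusted p = 0.00506). CX3CR1, the receptor of CX3CL1 that marks resident kidney macrophages, was 0.171, 0.194, 0.174 and 0.191 in KO animals and 0.129, 0.124, 0.137 and 0.158 in WT animals (0.39 ± 0.10, limma adjusted p = 0.0312). The CX3CR1 call was lost in 6 of the 8 fits that leave out 1 mouse (limma adjusted p up to 0.109), which were those without KO animals 5, 6 or 8 or WT animals 1, 2 or 4. CCR2 and CXCR6 lie close together on mouse chromosome 9, Ccr2 at 124101950 to 124113557 and Cxcr6 at 123806475 to 123811760 (GRCm38). That chromosome held 13 of the 45 mouse members that could be placed by name.

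Of the macrophage and monocyte markers, 11 of 13 tested were called higher in Ctns KO mice (6.6% of all genes tested were). Their summed scaled value was 6.59 to 7.55 in KO and 5.15 to 5.38 in WT animals, and MARCO had 0 reads in every mouse. For dendritic cell markers 2 of 6 tested were called higher, with sums of 0.746 to 0.842 against 0.579 to 0.665. None of the 11 T and NK cell markers tested was called by limma, with 2 at an unadjusted p under 0.05, and edgeR and DESeq2 on the recovered reads called 0 of 13 each (2 and 1 at an unadjusted p under 0.05). Their sums of 0.285 to 0.440 and 0.252 to 0.3 overlapped. The macrophage genes with the lowest adjusted p were C1QA (log2 difference 0.87, limma adjusted p = 2.95e-05), C1QB and C1QC. These values moved with CCR2 and CX3CR1 and their part in the result was not tested.

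The ligands of these receptors were uneven in mice. CCL2, the main ligand of CCR2, had 15, 18, 11 and 15 reads in KO animals and 5, 3, 5 and 1 in WT animals. The groups did not overlap, but its mean value was below the filter, so it was not among the genes tested. With edgeR on the recovered reads CCL2 had a log2 difference of 2.15 ± 0.51 (adjusted p = 0.0168), and limma without the filter gave 0.73 (adjusted p = 0.0254). CCL2 passed the filter of that edgeR fit through KO animals alone, so its separation there partly follows from the filter. CCL5 was 0.0538, 0.0579, 0.0551 and 0.0301 in KO animals and 0.0308, 0.0279, 0.0326 and 0.0368 in WT animals, and KO animal 8 lay within the WT range (log2 difference 0.47, limma adjusted p = 0.13). Without KO animal 8 the difference was 0.65 and passed the test (limma adjusted p = 0.0175). CX3CL1 was 2.27 to 2.38 in KO and 1.66 to 2.24 in WT animals, without overlap but not called (0.21 ± 0.08, limma adjusted p = 0.143). CCL28, a mucosal chemokine that acts through CCR10, spread widely among WT mice, with 671, 56, 934 and 509 reads, and its KO animals at 210 to 264 reads lay inside that range.

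**Figure D2:**
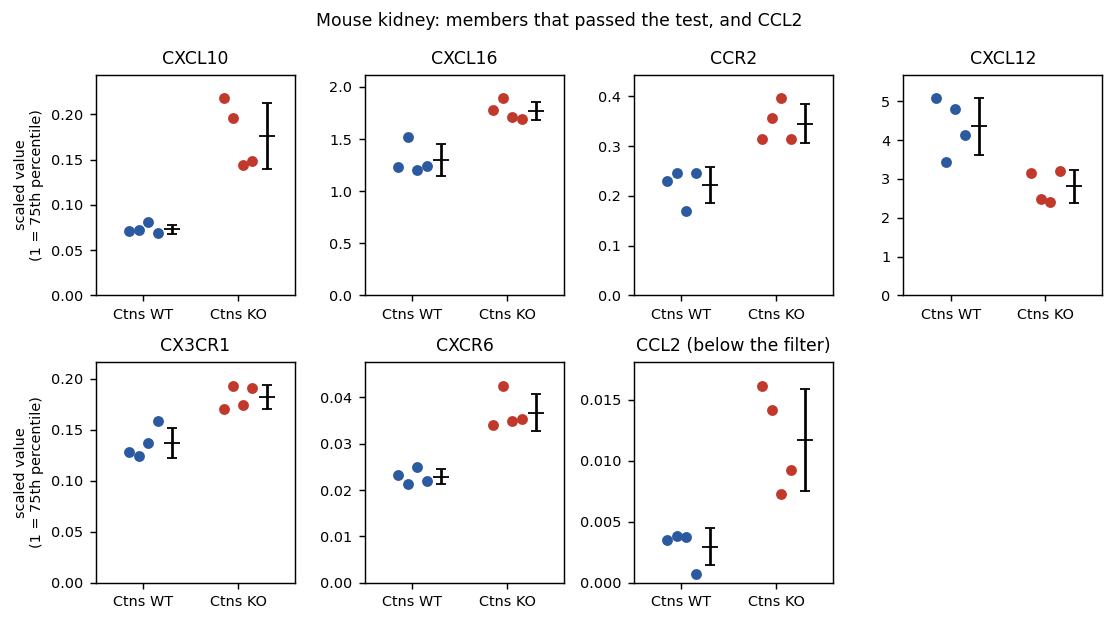
Scaled value in every mouse (1 is the upper quartile of a library) for called members and CCL2; points are animals, the black bar is mean ± SD, n = 4 per genotype. The genotypes do not overlap in any panel, and CXCL12 alone is lower in Ctns KO.

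In rats, 32 of the 49 members passed the filter on low counts and 20 were called. Of these, 19 were higher in Ctns KO kidneys, where 15.2% of all genes tested were, and 1 was lower, where 12.3% were. The median log2 difference over the 32 members was 0.69, against -0.02 over all genes tested. The groups of 8 did not overlap for 7 members that were higher (3.89% of all genes tested) and 1 that was lower (1.95%). CCL22, 1 of these 7, passed the filter through KO animals alone, so its lack of overlap partly follows from the filter. By role, the called members were 6 of 12 CC ligands, all 3 interferon-inducible CXC ligands, 2 of 4 other CXC ligands, 1 of 2 CX3C and XC ligands, 3 of 3 CC receptors, 3 of 4 CXC receptors and both CX3C and XC receptors. Neither of the 2 atypical receptors tested was called.

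The CXCR3 axis rose as a whole in rats. CXCL10 was 8.94 to 22.3 CPM with a median of 13.3 in KO and 3.34 to 7.99 with a median of 5.23 in WT animals, without overlap (log2 change 1.41 ± 0.20, edgeR adjusted p = 0.000112). CXCL11 was 12.6 to 30.3 CPM with a median of 20.03 in KO and 7.37 to 12.2 with a median of 9.40 in WT animals, again without overlap (1.08 ± 0.18, edgeR adjusted p = 0.000405). CXCL9 ranged from 1.63 to 5.04 CPM with a median of 2.58 in KO and from 0.646 to 2.49 with a median of 1.15 in WT animals. Its groups overlapped and it passed the test (1.06 ± 0.29, edgeR adjusted p = 0.0131). CXCR3, the receptor that these ligands share on T and NK cells, was 1.65 to 3.93 CPM with a median of 2.55 in KO and 0.461 to 1.82 with a median of 1.06 in WT animals, with slight overlap (1.27 ± 0.26, edgeR adjusted p = 0.00167). Cxcl10 and Cxcl11 overlap Art3 in the rat annotation (GRCr8), and ART3 itself was 5.46 ± 1.57 CPM in KO and 3.09 ± 0.411 in WT animals (SD, n = 8 each; log2 change 0.82, edgeR adjusted p = 0.00117). The libraries were stranded, but whether counting used the strand is not given in the sources used here, so reads of ART3 and these ligands were not told apart.

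T and NK cell markers moved with this axis in rats. Of the 12 tested, 11 were called higher (15.2% of all genes tested were), among them CD3D (log2 change 1.80, edgeR adjusted p = 0.00092), LCK and CD3E. The sum of the markers was 38.8 to 81.5 CPM in KO and 22.6 to 43.3 CPM in WT animals. PRF1, KLRD1 and EOMES had no row in rats, and no other marker of the list was at 0 in all rats. The part of T and NK cells in the result was not tested.

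CCL19 and CCL21, which guide dendritic cells and naive T cells into lymphoid tissue through CCR7, rose in rats. CCL19 was 3.02 to 9.83 CPM with a median of 5.59 in KO and 0.565 to 2.49 with a median of 0.998 in WT animals, without overlap (log2 change 2.29 ± 0.33, edgeR adjusted p = 0.00011), which is 4.89-fold. CCL21 was 21.5 to 45.6 CPM with a median of 29.2 in KO and 13.8 to 28.6 with a median of 15.4 in WT animals (0.87 ± 0.17, edgeR adjusted p = 0.00119). Its overlap came from WT animal 17 at 28.6 CPM, while the other WT animals lay at or below 17.7 CPM. CCR7 had 3 to 27 reads in KO and 2 to 9 in WT animals and was below the filter over all rats; without the filter its log2 change was 1.56 ± 0.37 (edgeR adjusted p = 0.00585).

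XCR1, the receptor that marks cross-presenting dendritic cells, had the lowest adjusted p of all members in rats. It was 1.19 to 3.65 CPM with a median of 2.14 in KO and 0.259 to 0.805 with a median of 0.466 in WT animals, without overlap, on 7 to 119 reads per rat (log2 change 2.13 ± 0.29, edgeR adjusted p = 5.79e-05). XCL1, its ligand made by NK and CD8 T cells, was 0.634 to 1.30 CPM with a median of 1.07 in KO and 0.565 to 0.818 with a median of 0.690 in WT animals (0.61 ± 0.15, edgeR adjusted p = 0.00663). CCL22, a chemokine of dendritic cells and macrophages that acts through CCR4, was 0.351 to 0.952 CPM in KO and 0.0371 to 0.314 CPM in WT animals, without overlap (1.83 ± 0.29, edgeR adjusted p = 0.000281). It had 11 to 31 reads in KO and 1 to 10 in WT animals. CCL22 thus passed the filter through KO animals alone, and its lack of overlap partly follows from that. CCL17, which also acts through CCR4, was 0.549 ± 0.212 CPM in KO and 0.376 ± 0.149 in WT animals (SD, n = 8 each; edgeR adjusted p = 0.156). Dendritic cell markers summed to 29.3 to 54.2 CPM in KO and 21.5 to 29.9 CPM in WT rats, with 1 of 4 tested called higher (CLEC10A, log2 change 2.21, edgeR adjusted p = 2.37e-05), and their part in the result was not tested. FLT3 and CLEC9A, also on that list, had no row in the rat table. Of all genes tested, 15.2% were called higher in rats. In rats 25 to 32, CLEC10A and BATF3 were called higher and ZBTB46 lower (log2 changes 2.78, 1.45 and -0.48, edgeR adjusted p = 1.12e-06, 0.0054 and 0.0359).

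Among the inflammatory CC ligands in rats, CCL2 and CCL4 rose and CCL5 did not pass the test. CCL2 was 0.678 to 2.15 CPM with a median of 1.20 in KO and 0.0741 to 0.886 with a median of 0.355 in WT animals (log2 change 1.67 ± 0.41, edgeR adjusted p = 0.00657), and the highest WT animal was again animal 17. CCL7, which also acts through CCR2, had 8 to 29 reads in KO and 1 to 10 in WT animals and was tested only without the filter (1.87 ± 0.43, edgeR adjusted p = 0.00454). CCL4 was 0.880 to 1.91 CPM in KO and 0.362 to 1.17 CPM in WT animals (0.80 ± 0.22, edgeR adjusted p = 0.0109). CCL5, made by T cells and NK cells, was 4.11 to 5.31 CPM in KO and 4.03 to 6.32 CPM in WT animals, a log2 difference of 0.01 ± 0.11 (edgeR adjusted p = 0.935). CCL18, a name found for no gene in the rat annotation used here (GRCr8), was 0.951 to 2.51 CPM against 0.471 to 1.09 CPM (0.70 ± 0.23, edgeR adjusted p = 0.0319), and the call was lost without any 1 of 6 rats (KO animals 28, 30 and 32 and WT animals 17, 23 and 27).

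Among further receptors of lymphoid and myeloid cells, CCR6, CXCR6 and CX3CR1 rose in rats. CCR6, the receptor of CCL20 on Th17 and B cells, was 0.599 to 1.77 CPM in KO and 0.0741 to 0.724 CPM in WT animals (log2 change 1.52 ± 0.34, edgeR adjusted p = 0.00337). Its ligand CCL20 was 0.703 ± 0.276 CPM in KO and 0.755 ± 0.285 in WT animals (SD, n = 8 each; edgeR adjusted p = 0.832). CXCR6 was 1.05 to 2.36 CPM in KO and 0.519 to 1.26 CPM in WT animals (0.97 ± 0.21, edgeR adjusted p = 0.00243), while its ligand CXCL16 was 186 to 274 CPM against 158 to 217 CPM and was not called over all rats (0.26 ± 0.11, edgeR adjusted p = 0.0787), but passed with the number range as a covariate (0.25 ± 0.04, edgeR adjusted p = 0.000263). Fyco1 overlaps Cxcr6, and FYCO1 showed a log2 difference of -0.21 (edgeR adjusted p = 0.144). CX3CR1 was 5.47 to 9.18 CPM in KO and 3.90 to 6.93 CPM in WT animals (0.48 ± 0.14, edgeR adjusted p = 0.0159), beside a CX3CL1 of 141 ± 21.8 and 143 ± 38.9 CPM (edgeR adjusted p = 0.919). Of the macrophage and monocyte markers, 11 of 13 tested were called higher and 1 lower in rats (15.2% and 12.3% of all genes tested were). These markers summed to 293 to 615 CPM in KO and 226 to 305 CPM in WT animals. Their part in these results was not tested.

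CXCL12, which was lower in Ctns KO mice, was higher in Ctns KO rats. It was 128 to 156 CPM with a median of 139 in KO and 109 to 125 with a median of 117 in WT rats, without overlap, and the step was small (log2 change 0.25 ± 0.05, edgeR adjusted p = 0.00126). CXCR4 was 1.46 to 3.7 CPM in KO and 1.04 to 2.30 CPM in WT animals (0.70 ± 0.21, edgeR adjusted p = 0.0183). ACKR3 was 45.6 to 64.0 CPM in KO and 47.3 to 69.9 CPM in WT animals (0.03 ± 0.08, edgeR adjusted p = 0.837). CXCL14 was 4.07 to 5.87 CPM in KO and 1.97 to 5.18 CPM in WT animals (0.72 ± 0.18, edgeR adjusted p = 0.00641). Fibroblast and pericyte markers summed to 325 to 534 CPM in KO and 258 to 298 CPM in WT rats, with 6 of 7 tested called higher (15.2% of all genes tested were). Endothelial markers summed to 513 to 670 and 600 to 689 CPM, with 1 of 7 called lower, which is near the share of all genes (12.3%). The part of both in the result was not tested. CXCL13, which draws B cells through CXCR5, was 5.56 to 29.5 CPM in KO and 6.69 to 12.7 CPM in WT animals (0.44 ± 0.31, edgeR adjusted p = 0.304), and CXCR5 was 1.29 ± 0.219 and 1.25 ± 0.248 CPM (edgeR adjusted p = 0.838).

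CCR10, a receptor for CCL27 and CCL28, was the only called member that was lower in Ctns KO rats. It was 11.2 to 17.7 CPM with a median of 15.5 in KO and 18.1 to 26.3 with a median of 22.5 in WT animals, without overlap, and it fell by 0.55 ± 0.10 on the log2 scale (edgeR adjusted p = 0.00067). Rat Ccr10 overlaps Cntnap1, and CNTNAP1 moved with it, from 65.7 ± 5.25 CPM in WT to 46.6 ± 9.18 CPM in KO animals (SD, n = 8 each; log2 change -0.49, edgeR adjusted p = 0.00213). In mice, where Ccr10 overlaps Cntnap1 as well, CCR10 had 0 to 4 reads per animal, against 364 to 894 per rat. Reads of the pair were not told apart here. CCL27 was 4.12 ± 0.790 CPM in KO and 4.82 ± 1.002 in WT rats (SD, n = 8 each; edgeR adjusted p = 0.26).

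The rows for ligands of neutrophils held low values in rats. CXCL3 was a mean over several rodent genes, so its values are rounded means and not reads. Such a row can be low while 1 of its genes is not. The rounded mean was at least 1 in all 8 KO animals, with a total of 49, and in 2 of 8 WT animals, with a total of 2. CXCL6 had 17 reads in 6 KO animals and 2 reads in 1 WT animal. Their receptor CXCR2 had 7 to 16 reads in KO and 0 to 11 in WT animals (edgeR without the filter, adjusted p = 0.0671), and CXCR1 had 6 reads in KO and 0 in WT animals. Of the 2 neutrophil markers tested, CSF3R was called higher (log2 change 0.81, edgeR adjusted p = 0.00902), and the marker list summed to 1.32 to 2.71 CPM in KO and 0.830 to 2.03 CPM in WT rats, with ELANE at 0. Among the 17 members below the filter, 6 passed without it (CCL7, CCR4, CCR7, CXCL3, CXCL6 and CXCL17), all with higher estimates in KO animals. The others, ACKR2, CCL1, CCL11, CCL25, CCL26, CCR1, CCR3, CCR8, CCR9, CXCR1 and CXCR2, did not, and none of them had more than 16 reads in any rat. Over all 14931 symbols, the fit without the filter called 1833 higher and 1391 lower. The share among all genes below the filter was not counted.

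**Figure D3:**
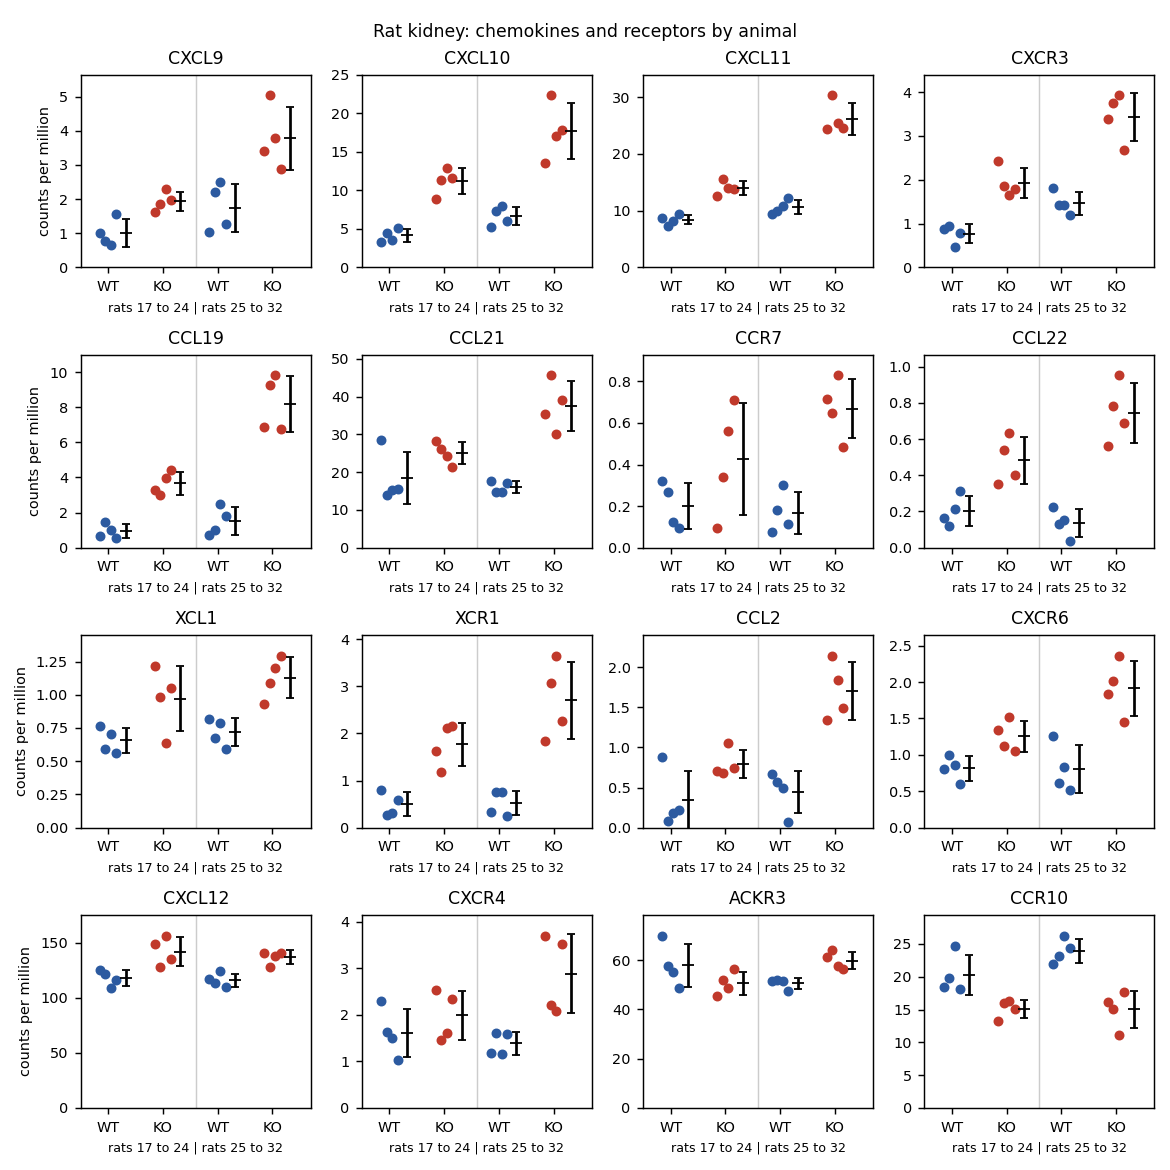
CPM in every rat for 16 members, split by number range and genotype (blue Ctns WT, red Ctns KO); points are animals, the black bar is mean ± SD, n = 4 per group. CXCL10, CXCL11, CCL19 and XCR1 separate the genotypes in both ranges, and WT animal 17 is the high WT point for CCL21, CCL2 and ACKR3.

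Within the number ranges, 9 of 33 members tested were called in rats 17 to 24 and 27 of 34 in rats 25 to 32. In rats 17 to 24, 8 were higher (5.07% of all genes tested) and 1 lower (2.19%). In rats 25 to 32, 25 were higher (21.8%) and 2 lower (22.1%). The median log2 difference of the members was 0.47 in the first range and 0.91 in the second, against -0.0020 and -0.01 over all genes tested. The groups did not overlap for 14 higher and 1 lower members in rats 17 to 24 (7.85% and 5.87% of all genes tested) and for 24 higher and 2 lower members in rats 25 to 32 (20.4% and 19.9%). Some of these members passed the filter through KO animals alone, so their lack of overlap partly follows from the filter. They were CCL22 and CXCR2 in rats 17 to 24 and CCL7, CCL22 and CCR7 in rats 25 to 32. The animals of the ranges are separate, while the comparison over all rats uses both.

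In the second range 43.8% of all genes tested passed, and how many genes passed in both ranges was not counted. The same 9 members were called in both ranges, 9 of 9 in the first and 9 of 27 in the second. Among them were CCL19, CXCL9, CXCL10, CXCL11, CXCL12, CXCR3 and XCR1, all higher, and CCR10, lower. CXCL10 went from 4.16 ± 0.847 to 11.2 ± 1.67 CPM in rats 17 to 24 and from 6.67 ± 1.22 to 17.7 ± 3.6 CPM in rats 25 to 32 (WT to KO, SD, n = 4 each), with log2 changes of 1.43 and 1.40 that differed by -0.02 ± 0.24 (edgeR adjusted p = 0.957). CXCR3 was 0.769 ± 0.215 and 1.93 ± 0.340 CPM in the first range and 1.47 ± 0.264 and 3.43 ± 0.556 CPM in the second (WT and KO). XCR1 was 0.494 ± 0.255 and 1.77 ± 0.459 CPM in the first and 0.524 ± 0.264 and 2.71 ± 0.813 CPM in the second. CCL19 was 0.927 ± 0.394 and 3.66 ± 0.640 CPM in the first and 1.5 ± 0.794 and 8.18 ± 1.59 CPM in the second. The calls of CCR10, CXCL9 and CXCL12 in rats 17 to 24 were lost in 5, 7 and 6 of the 8 fits that leave out 1 rat (edgeR adjusted p up to 0.0897, 0.128 and 0.106).

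Another 18 members passed the test in rats 25 to 32 and did not pass or were not tested in rats 17 to 24. Among the ligands these were CCL2, CCL4, CCL7, CCL15, CCL18, CCL21, CCL22, CXCL13, CXCL14, CXCL16 and XCL1, which were higher, and CCL24, an eotaxin, which was lower (5.67 ± 1.34 CPM in WT and 3.7 ± 0.179 CPM in KO animals, SD, n = 4 each; log2 change -0.62, edgeR adjusted p = 0.0125). CCL15, like CCL18, was a name found for no gene in the rat annotation used here (GRCr8). The receptors were CCR6, CCR7, CXCR4, CXCR6, CX3CR1 and ACKR3. CCR7 had 12 to 27 reads in KO and 2 to 8 in WT animals of this range (1.99 ± 0.38, edgeR adjusted p = 0.00186). In this range CCR7, CCL7 and CCL22 passed the filter, and so entered the test, through KO animals alone. CXCL16 was 245 to 274 CPM in KO and 207 to 217 CPM in WT animals (0.32 ± 0.06, edgeR adjusted p = 0.00131), and CXCL13 13.5 to 29.5 CPM against 8.19 to 12.7 CPM (0.77 ± 0.24, edgeR adjusted p = 0.0238). In this range the call of CXCL13 was lost without KO animal 28 or WT animals 25 or 31 (edgeR adjusted p up to 0.0609), and that of CCL7 without KO animal 28 (0.0516). The call of CX3CR1 was lost without KO animals 26, 28 or 30 or WT animals 27 or 31 (edgeR adjusted p up to 0.0617). The call of XCL1 was lost without KO animals 28, 30 or 32 or WT animals 27 or 31 (edgeR adjusted p up to 0.0758) and with DESeq2 (adjusted p = 0.0606). CXCL16 passed in rats 17 to 24 with DESeq2 (adjusted p = 0.0294) and without WT animal 17 (edgeR adjusted p = 0.0190). Passing in 1 range and not in the other does not show a difference between them, which was tested directly.

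The change differed between the ranges for 2 of 35 members tested, where 14.7% of all genes tested did, both with a larger change in rats 25 to 32 (7.1% of all genes, with 7.64% the other way). CXCL11 rose more in rats 25 to 32, with values of 24.4, 30.3, 25.5 and 24.5 CPM in KO and 9.45, 9.87, 10.8 and 12.2 CPM in WT animals, than in rats 17 to 24, with 12.6, 15.6, 13.9 and 13.8 CPM in KO and 8.78, 7.37, 8.21 and 9.36 CPM in WT animals. Its log2 changes were 1.31 and 0.74, and they differed by 0.57 ± 0.15 (edgeR adjusted p = 0.0166). ACKR3 had estimates of opposite sign, -0.18 ± 0.10 in rats 17 to 24, where it did not pass the test, and 0.24 ± 0.07 in rats 25 to 32 (difference 0.43 ± 0.13, edgeR adjusted p = 0.0311). WT animal 17 was at 69.9 CPM of ACKR3 and the other WT animals of its range at 48.8 to 57.6 CPM, and the difference lost its call without that animal, without WT animal 19 or without KO animals 18, 22 or 28 (edgeR adjusted p up to 0.0725). For CCL21 the log2 changes of 0.47 and 1.22 differed by 0.76 ± 0.27 and for CXCL13 those of -0.20 and 0.77 by 0.98 ± 0.34, and neither passed the test (edgeR adjusted p = 0.0653 and 0.0612). The difference of CXCL13 passed with DESeq2 (0.98, adjusted p = 0.0207) and without KO animals 22, 26 or 30 (edgeR adjusted p up to 0.0465). In rats 17 to 24, CCL2 passed the test only without WT animal 17 (log2 change 2.26 against 1.31 with it, edgeR adjusted p = 0.00489 and 0.165). Without that animal CCL2 passed the filter through KO animals alone, so its separation there partly follows from the filter.

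Sums of T and NK cell markers and of macrophage and monocyte markers were higher in KO animals in each range. Whether they differed between ranges was not tested. T and NK cell markers summed to 38.8 to 42.8 CPM in KO and 22.6 to 31.5 CPM in WT rats 17 to 24, and to 67.5 to 81.5 and 38.2 to 43.3 CPM in rats 25 to 32. Macrophage and monocyte markers summed to 293 to 311 CPM in KO and 226 to 277 CPM in WT animals of the first range, and to 447 to 615 and 270 to 305 CPM in the second. Proximal tubule markers ran the other way, at 8956 to 9595 CPM in KO and 10694 to 12805 CPM in WT animals of the first range and 7201 to 8641 and 13887 to 15530 CPM in the second. Of the 7 tested, 2 and 6 were called lower, where 2.19% and 22.1% of all genes tested were. These shifts stood beside the changes of the members and their part was not tested.

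**Figure D4:**
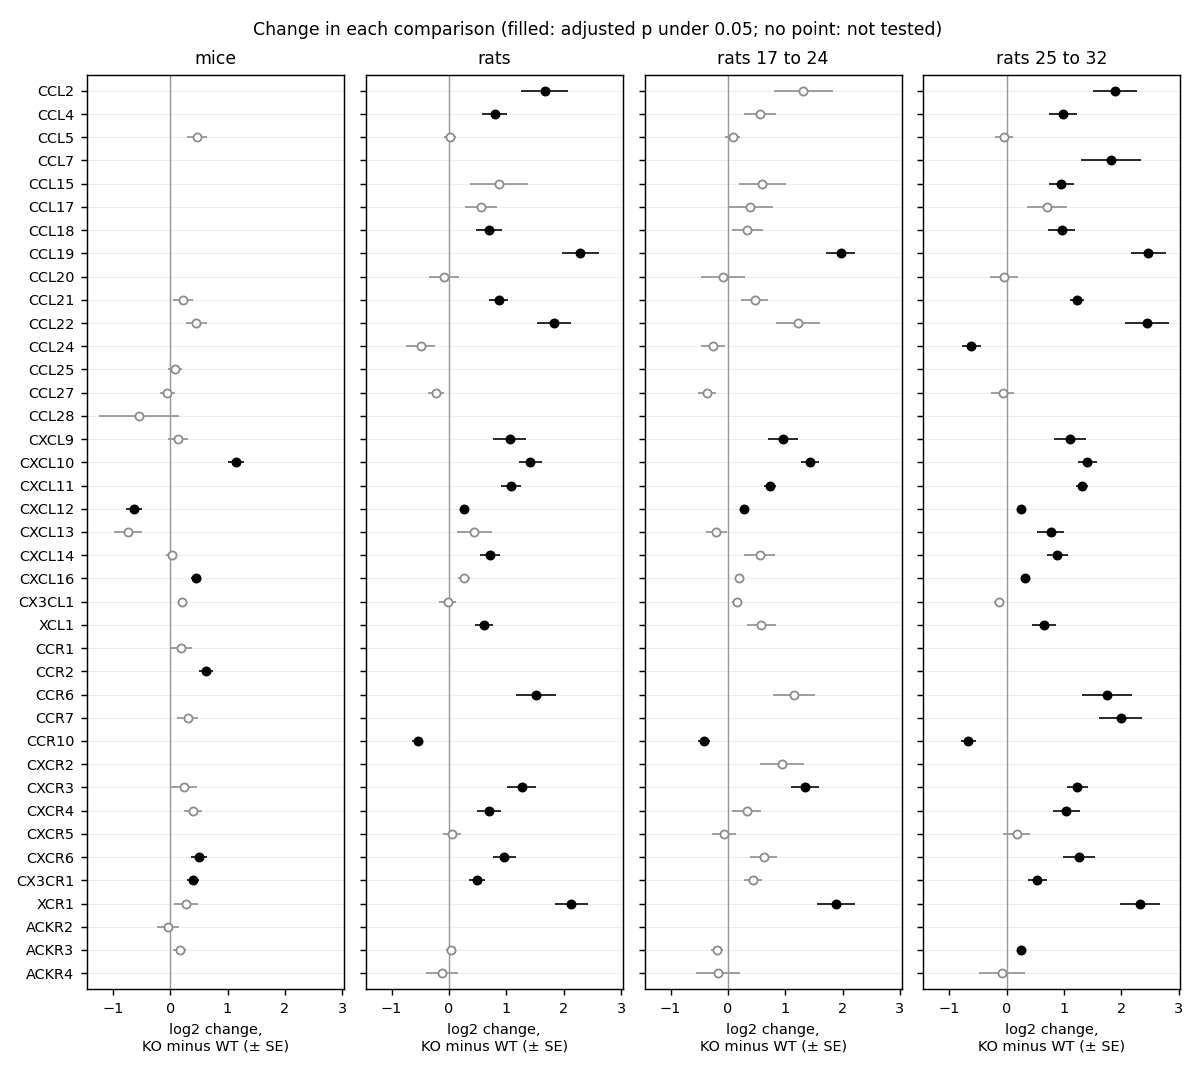
Log2 change, Ctns KO minus Ctns WT, with its SE, for members tested in mice (limma), in all rats and in each rat number range (edgeR); filled points passed the adjusted p of 0.05, and a missing point was not tested. CXCL12 lies left of 0 in mice, at -0.63, and right of 0 in rats, at 0.25.

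Over all genes tested, 8.99% passed in mice and 27.5% in rats, and how many passed in both was not counted. Between the species, 5 members were called in both, 5 of 7 in mice and 5 of 20 in rats. Among these, CXCL10, CX3CR1 and CXCR6 were higher in KO animals of both, and CXCL12 had opposite directions. CXCL16 and CCR2 were called in mice and not in rats, where CXCL16 did not pass the test and CCR2 was not analysed. The change differed between species for 2 of 17 members tested, where 1.92% of all genes tested did (1.2% higher and 0.724% lower in rats). The change of CXCL12 was 0.92 ± 0.13 higher in rats than in mice on the log2 scale (limma on the values of both species, adjusted p = 0.000132), and this call held after leaving out any 1 of the 24 animals (adjusted p up to 0.000761). XCR1 was 0.0286 ± 0.00748 in KO and 0.0223 ± 0.00808 in WT mice (scaled value, SD, n = 4 each), and its change was 1.19 ± 0.31 higher in rats (limma adjusted p = 0.0472), a call that was lost in 17 of the 24 fits that leave out 1 animal. CXCL13, CXCR3, CXCL9, CXCL14 and CCL21 had larger estimates in rats by 0.65 to 1.01, and none passed the test (limma adjusted p from 0.127 to 0.306).

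Genes that act around the chemokines were counted from lists chosen for this report. Of the genes for NF-kB, cytokines and adhesion that induce or accompany chemokines, 9 of 28 tested were called higher in mice (limma; 6.6% of all genes tested were) and 17 of 25 in rats (edgeR; 15.2%). VCAM1, an adhesion molecule for leukocytes, had the lowest adjusted p of the list in both species, with a log2 difference of 1.40 in mice (limma adjusted p = 3.33e-06) and 0.57 in rats (edgeR adjusted p = 0.000189). NFKB2 and BCL3 had the next lowest adjusted p in mice, and NFKBIZ and ICAM1 in rats, where the change of NFKBIZ was larger, at 1.03. The median of this list was 0.27 in mice and 0.54 in rats, against 0.0098 and -0.02 over all genes tested.

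Of the genes that carry the signal of chemokine receptors, 4 of 35 tested were called higher in mice (6.6% of all genes tested were) and 16 of 29 in rats (15.2%). The share of the list in mice was near that of all genes. The lowest adjusted p in mice were those of DOCK2, a guanine exchange factor for Rac in leukocytes (log2 difference 0.60, limma adjusted p = 0.00843), STAT3 and RAC2. The calls of STAT3 and RAC2 in mice were lost without the filter (limma adjusted p = 0.0638 and 0.0769) and without KO animals 5 or 6, and that of RAC2 also without WT animal 4 (limma adjusted p up to 0.0713 for STAT3 and 0.0798 for RAC2). With 1 in place of 0.01 added to each value and no filter, DOCK2, STAT3 and RAC2 all lost their calls (limma adjusted p = 0.0543, 0.0824 and 0.118). Those called in rats included STAT3 (0.49, edgeR adjusted p = 4.83e-05) and JAK3. Of the relatives and modifiers of chemokines, 3 of 10 tested were higher and 1 lower in mice (6.6% and 2.38% of all genes tested were). In rats 2 of 10 were higher and 1 lower (15.2% and 12.3%), which is near the shares of all genes. C5AR1, the receptor of complement C5a, was higher in both species (0.73 in mice and 0.89 in rats, limma adjusted p = 0.0112 and edgeR adjusted p = 0.00398). PITPNM3, described as a receptor for CCL18, was lower in mice (-0.97, limma adjusted p = 6.97e-05) and higher in rats (0.69, edgeR adjusted p = 0.00826). DPP4, a peptidase of the proximal tubule brush border that trims CXCL10 and CXCL12, was lower in rats (-0.38, edgeR adjusted p = 0.033), a call that was lost without any 1 of 9 of the 16 rats (KO animals 18, 26, 28, 30 and 32 and WT animals 23, 25, 27 and 29; edgeR adjusted p up to 0.0699).

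Members tested in mice and not yet named, ACKR2, CCL21, CCL22, CCL25, CCL27, CCR1, CCR7, CXCL13, CXCL14 and CXCR3, did not pass limma's test. CXCL13 was called lower with DESeq2 on the recovered reads (log2 change -1.36, adjusted p = 0.0326) and in limma without WT animal 4 (-0.94, adjusted p = 0.0229). CCL22 (0.0204 ± 0.00615 in KO and 0.012 ± 0.00335 in WT animals) and CXCL13 (0.0091 ± 0.00437 and 0.0224 ± 0.0103, SD, n = 4 each) had the lowest adjusted p of these, at 0.166 and 0.0891 in limma. The other 21 of the 23 mouse members below the filter, besides CCL2 and CXCL11, had at most 21 reads in any mouse, and without the filter CCL24 alone of these passed (2 to 4 reads in KO and 1 in each WT animal, limma adjusted p = 0.0455). Over all symbols, limma without the filter called 872 of 17376. In rats the remaining members tested and not called were ACKR4, CCL15 and CCL24, with edgeR adjusted p of 0.784, 0.209 and 0.153 over all animals.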

How the data were processed

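The authors deposited 1 table per species, with 1 column per animal. Per the labels' processing notes they used bcl2fastq 2.20, STAR 2.7.3, R 3.6.1 and DESeq2 1.24.0, and the builds mm10 and rn5; strand handling in counting is not given in the sources used here. The mouse values are a signal that the authors deposited after scaling each library, and whole reads were recovered for 99.0% of mouse values within a tolerance of 0.01. The rat values are estimated counts that the authors deposited with an offset of 0.167 added to each, which was subtracted before rounding to whole numbers. For rats, 97.7% of values were then whole within the same tolerance, and a row that is a mean over several genes need not be. All columns mapped to a sample.

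Mice were tested with limma 3.58.1 on log2(value + 0.01) for symbols with a mean of at least 0.01, since the mouse table holds scaled values and not counts. Rats were tested with edgeR 4.0.16 (quasi-likelihood, TMM, low counts filtered), in all 16 animals and in each number range, with an interaction term for the difference between ranges. On the recovered mouse reads edgeR called 1198 of 13442 symbols, against 1180 of 13132 with limma. The species were compared with limma on shared symbols. Adjusted p-values are Benjamini-Hochberg over all symbols tested. The alternatives were DESeq2 1.42.0, edgeR on recovered mouse reads, other pseudocounts, no filter, the number range as a covariate and leaving out each animal (R 4.3.3). The limma and edgeR fits of KO against WT were tested on simulated data, and the interaction and DESeq2 fits were not. Marker and related lists stand beside the members as counts and medians, and motifs were searched in RefSeq promoters.

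The members and lists were chosen with earlier results of these data known. The rule for named genes took the called members of each comparison, at most 15 by adjusted p, a set of ligands with their receptors, and the 3 called genes of each related list with the lowest adjusted p. CCL4, CCL18 and CXCL9 in rats, CCL24 in rats 25 to 32, the members below the filters, the overlapping genes and the marker genes were named after their values were seen. A member and a related gene are counted but not reported here.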

Additional observations from a re-analysis of the deposited data

Results flagged for a closer look

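Of the 82 groups of named members examined, 7 held an animal set apart from the rest of its group, and chance sets apart about 1 in 20 groups. WT rat 17 was the high animal in 3 of them, with 28.6 CPM of CCL21, 69.9 CPM of ACKR3 and 2.3 CPM of CXCR4. CXCR5 was 0.724 CPM in WT rat 27, below the other WT rats. In mice, CCL5 was low in KO animal 8 (scaled value 0.0301), CXCL16 high in WT animal 2 (1.52) and CXCR3 high in WT animal 1 (0.0378).

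The change between genotypes differed between groups for 4 members by a test of the difference itself. Between rats 25 to 32 and rats 17 to 24 the log2 change was higher by 0.57 for CXCL11 and by 0.43 for ACKR3. Between rats and mice it was higher by 0.92 for CXCL12 and by 1.19 for XCR1.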

How the results depend on the processing

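No paired analysis was possible because KO and WT animals share no replicate numbers. No estimate of a member changed sign as a called value under the alternatives run. In mice, members called lower were 0 with a pseudocount of 1 and no filter and 2 with DESeq2, against 1, and related genes called were 10 with that pseudocount and 11 without the filter, against 17. In rats, members called lower were 2 with the number range as a covariate, against 1, and in rats 17 to 24 they were 0 in 1 fit of all 16 rats, against 1. The range difference held for 4 members with DESeq2, all 4 higher, against 2. The species difference held for 1 member, higher, with a pseudocount of 0.1 and for 4, 1 of them lower, without the filter, against 2. The cause of these moves was not tested. The other alternatives, DESeq2 size factors among them, kept each count within 1.5 times its value.

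Leaving out 1 animal at a time gave 4 to 6 called members in mice (4 to 5 higher, 0 to 1 lower; 4 without KO animal 5 or 6), 10 to 19 related genes in mice, 19 to 23 members in rats (18 to 22 higher), 33 to 39 related genes in rats, 6 to 12 in rats 17 to 24 (6 to 11 higher, 0 to 1 lower) and 22 to 27 in rats 25 to 32 (20 to 25 higher, 2 lower). The range difference held for 1 to 4 members (1 to 4 higher, 0 to 1 lower; 4 without KO rat 30, 1 without KO rat 18 or 28), and the species difference for 1 to 2 (1 to 2 higher, 0 lower). Members with few reads, such as CCL2 in mice and CCR7 in rats, are limited by depth, and so is the low row of CXCL3 in rats. Over all genes tested, calls in mice were 751 with a pseudocount of 1 and no filter, against 1180, and 653 to 1401 after leaving out 1 mouse, and DESeq2 called 930 higher and 588 lower, against 867 and 313. For the species difference they were 401 without the filter (201 higher and 200 lower in rats) and 307 with edgeR, against 202 (126 higher and 76 lower).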
